A study of Mus musculus with 5 samples.

Results

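Integrins are receptors made of an alpha and a beta chain that span the plasma membrane and hold cells to the extracellular matrix. The alpha chain largely sets which ligand is bound, and the short tails inside the cell connect the receptor to talin, kindlins and the actin cytoskeleton. In blood vessels the matrix-binding members anchor endothelial cells to the basement membrane, and several of them are known for their part in vessel sprouting. A total of 10 genes of matrix-binding integrins was described here: the collagen receptors Itga1 and Itga2, the laminin receptors Itga3 and Itga6, the fibronectin receptor Itga5, the RGD-binding chains Itgav, Itgb3 and Itgb5, the tenascin receptor Itga9, and Itgb1, the common partner of most of these alpha chains. They were chosen by gene name, and all probes bearing one of these names were used, which gave 26 of 56605 probes and 10 of 37074 gene names.

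The study used 60-mer Agilent mouse arrays, of which 5 were analysed, 1 for each condition. Liver sinusoidal endothelial cells (LSECs), the fenestrated lining of liver capillaries, came from mouse liver. Tumor endothelial cells (TECs) were the CD31+ cells taken with magnetic beads from tumors of HAK-1B, Hepa1-6 or KYN-2 cells grown in the liver, and the fifth array held cultured Hepa1-6 cells. Of these hepatoma lines HAK-1B and KYN-2 are human and Hepa1-6 is murine, so that human tumor RNA can reach the mouse probes only by cross-hybridization. The mice of the study were females bought at 6 weeks of age, and their age when cells were taken is not given. The labels give the strain C57BL/6 for LSECs and all TECs and C57L for Hepa1-6 cells. By contrast, the methods name C57BL/6 and BALB/c nu/nu nude mice without saying which array came from which. The cells of each tumor line were injected in Matrigel, itself a basement membrane extract. The paragraph of the methods on the arrays names Huh-7 in place of HAK-1B, and the labels were followed. Whether RNA of several mice was pooled is not given in the sources used here.

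No condition was replicated, and the precision of every value is limited by the number of arrays. Repeated spots of a probe had a median coefficient of variation of 2.62% to 3.08% per array, an error of the measurement that leaves out differences between animals. One slide carried the TEC arrays, and LSECs and Hepa1-6 cells had a separate slide each, and group and slide cannot be told apart. Between 44.6% and 78.1% of probes were well above background, the highest share being on the Hepa1-6 TEC array. All comparisons below use the same LSEC array. Values are log2 signals after quantile normalization over the 5 arrays, and ratios are log2 differences from LSEC unless a fold is named. A gene is given by its lead probe, the probe with the highest mean signal, and levels of different probes were not set against each other. The SD beside a mean of the 3 TECs is the spread between tumors of 3 lines.

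The CD31+ label was checked against marker genes. The summed signal of 10 endothelial genes was 213177 in LSEC, between 30188 and 58729 in TECs and 1590 in Hepa1-6 cells. A ratio to LSEC of at most 0.66 in all 3 TECs was found for 8 of the 10 endothelial genes, among them Tek (a receptor for angiopoietins), Kdr (the main VEGF receptor) and Eng (a TGF-beta co-receptor), and for 7 of 8 LSEC genes. The share of all genes was 17.8%. Pecam1, which encodes the CD31 used for the selection, was not among the 8 and was at 11.10 in LSEC, 9.93 for HAK-1B TEC, 9.15 for Hepa1-6 TEC, 11.01 on the KYN-2 TEC array and 5.70 in Hepa1-6 cells, not well above background there. The study also examined the purity of TECs by flow cytometry, which is not used here. In bulk samples, fewer cells of a type and less RNA per cell cannot be told apart. The summed signal of platelet genes was 129493 on the KYN-2 TEC array and between 39390 and 58608 on the other endothelial arrays. Most of each of these sums came from Pf4, at 15.31 in LSEC and 16.90 on the KYN-2 TEC array. Itga2b, Gp9, Ppbp and Gp1ba of this list were lower on the KYN-2 TEC array than in LSEC, and Gp1bb was higher. That of neutrophil genes was 124806 for HAK-1B TEC, 23913 for Hepa1-6 TEC, 3331 on the KYN-2 TEC array and 1072 in LSEC. That of epithelial and tumor genes was 134509 for Hepa1-6 TEC and 298499 in Hepa1-6 cells, against 1566 in LSEC, 800 for HAK-1B TEC and 6515 on the KYN-2 TEC array. Macrophage genes summed to 613871 in LSEC and to between 216008 and 375778 in TECs, and Clec4f, Cd5l and Vsig4 of this list were lower in all 3 TECs. Adgre1, Csf1r, C1qa and C1qb were 1.03-fold, 1.18-fold, 1.78-fold and 1.45-fold above LSEC for HAK-1B TEC. These genes were lower than LSEC for Hepa1-6 and KYN-2 TECs. Hepatocyte genes summed to 36010 in LSEC, 1020 for HAK-1B TEC, 1884 on the KYN-2 TEC array, 55341 for Hepa1-6 TEC and 18638 in Hepa1-6 cells. Most of the Hepa1-6 TEC sum came from Alb, at 15.54 there, 12.97 in LSEC and 13.94 in Hepa1-6 cells. Cyp2e1 and Serpina1a were lower for Hepa1-6 TEC than in LSEC, and Apoa1, Ttr and Apob were higher. Markers of other cells thus differed between LSEC and TECs and between the TEC arrays, and the part of these cells in the values below was not tested except where a value is given.

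**Figure D1:**
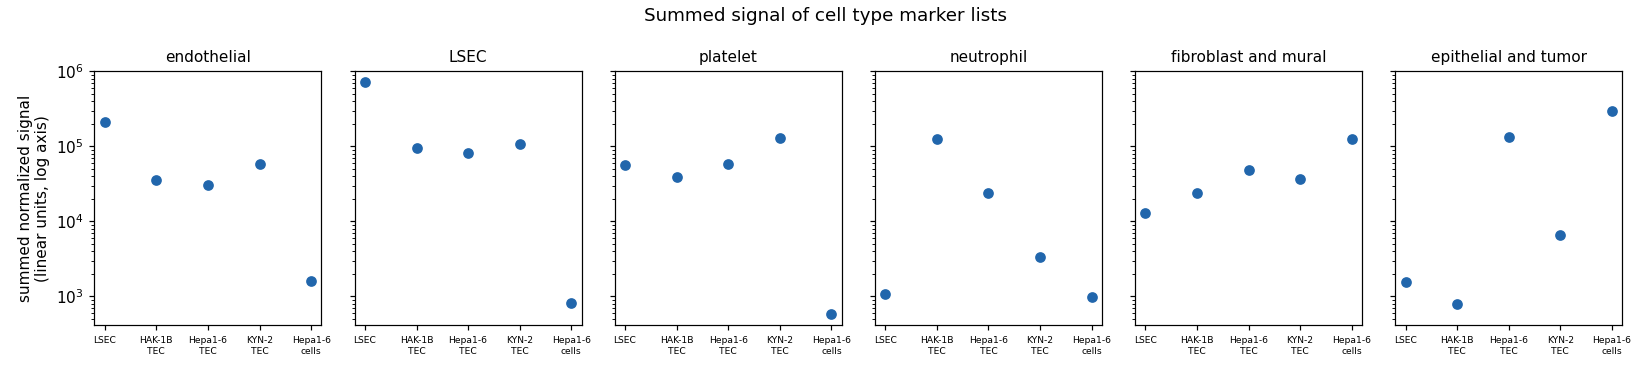
Summed normalized signal (log axis) of 6 lists of marker genes on each of the 5 arrays, 1 point per array. The endothelial and LSEC lists were highest in LSEC, the neutrophil list was highest in HAK-1B TEC and the epithelial and tumor list was highest in Hepa1-6 cells and Hepa1-6 TEC.

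The probes that lie in coding sequence show what is read from each gene. They are printed from 5′ to 3′ as on the array, which is the sense of the mRNA, with positions in mouse build mm9 as the files give them. Capitals in Itga2 and Itga9 mark 9 bases that both share, GGCTTCTTC, which begin the codons of the membrane-proximal motif of integrin alpha tails, where alpha and beta chains are held together. Capitals in Itgb1 mark the codons of its pair of tail motifs that bind talin and kindlin. Itga3 and Itga1 are shown without capitals because their probes lie outside these tail motifs.
Itga2: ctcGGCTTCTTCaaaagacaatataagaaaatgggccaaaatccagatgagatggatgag
Itga9: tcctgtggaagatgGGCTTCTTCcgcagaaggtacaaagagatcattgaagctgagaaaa
Itgb1: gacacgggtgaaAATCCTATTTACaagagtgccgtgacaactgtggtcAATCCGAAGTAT
Itga3: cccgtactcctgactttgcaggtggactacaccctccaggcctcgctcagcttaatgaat
Itga1: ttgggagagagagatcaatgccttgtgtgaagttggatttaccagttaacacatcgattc

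The Itga2 probe lies on chr13:115626714-115626773 on the minus strand, and the Itga9 probe spans an intron on chr9:118796991-118806400 on the plus strand. The Itgb1 probe spans an intron on chr8:131250081-131255976 on the plus strand. The Itga3 probe does so on chr11:94915485-94917062 and the Itga1 probe on chr13:115821387-115825525, both on the minus strand. The 9 bases, searched on both strands, were present in 84 of 56605 probes (0.148%), 2 of them probes of the 10 genes. The Itgb1 probe shares a run of 23 bases with another Itgb1 probe described below. In all, 7 of the 26 probes cross an exon junction.

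Across the 10 genes the clearest differences in level were at 3 of them. In all 3 TECs Itga1 and Itga9 were lower than in LSEC and Itga3 was higher. A ratio of at most 0.66 in all 3 TECs was found for 2 of the 9 genes kept, against 17.8% of all genes, and a ratio of at least 1.5 for 1 of 9, against 11% of all genes. These counts are close to the shares of all genes, and nothing about the integrins as a group is read from them. The median ratio of the members was 1.01 for HAK-1B TEC, -0.09 for Hepa1-6 TEC, 0.25 on the KYN-2 TEC array (9 genes) and -0.70 in Hepa1-6 cells. The median over all genes was 0.00, 0.09, -0.05 and -0.02 in the same order.

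**Figure D2:**
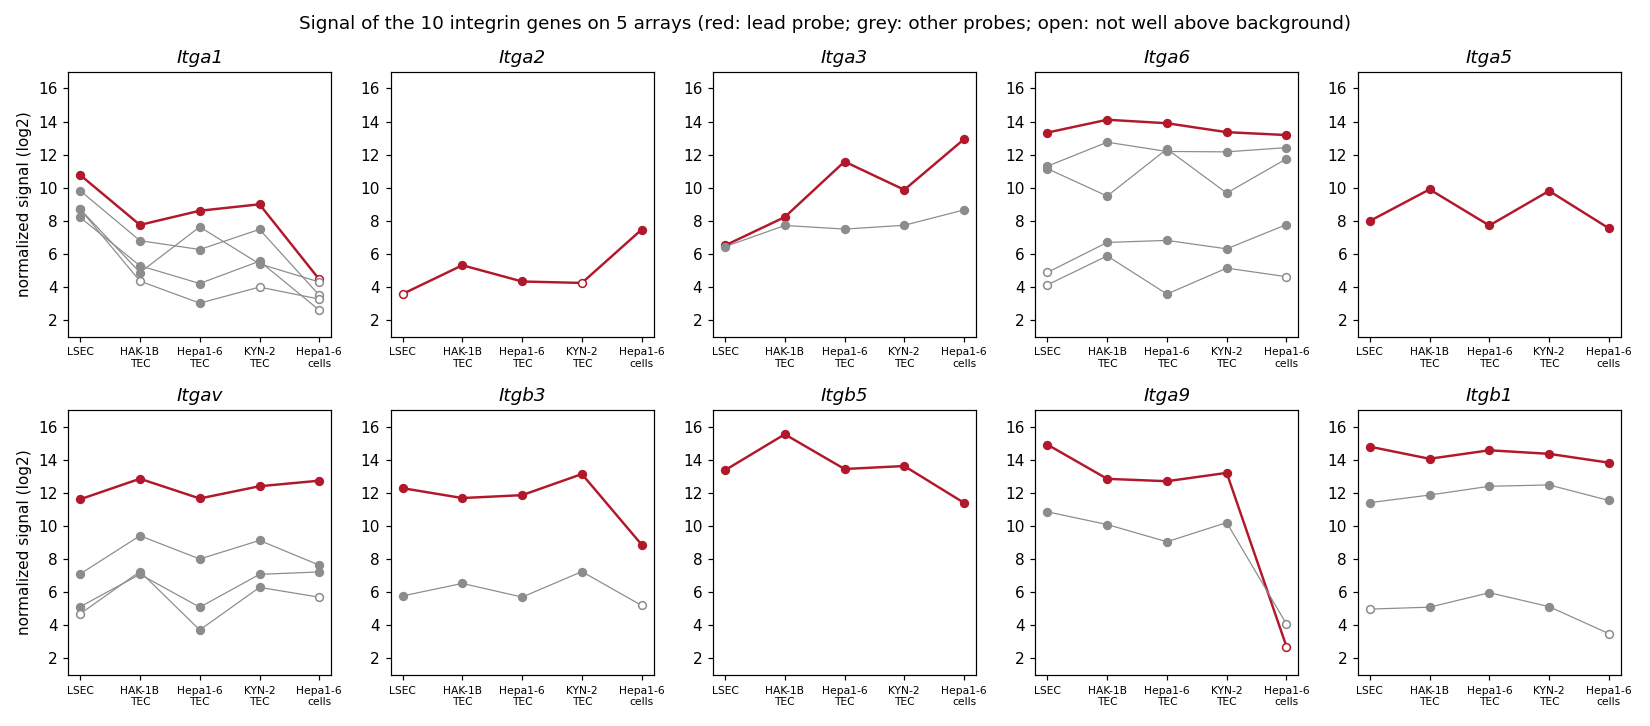
Normalized log2 signal (y axis) of every probe of the 10 genes on the 5 arrays (x axis), with the lead probe in red, other probes in grey and open circles for values not well above background. Lines join the values of 1 probe and are no time course. Itga1 and Itga9 were highest in LSEC, and Itga3 was highest in Hepa1-6 cells.

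Itga1, whose product pairs with Itgb1 and binds collagens, was at 10.77 in LSEC, 7.76 for HAK-1B TEC, 8.61 for Hepa1-6 TEC, with 9.0 for TECs of KYN-2. In Hepa1-6 cells it was at 4.46, not well above background. LSEC was thus the highest array and the TECs lay between it and the tumor cells. LSEC was 8.08-fold above HAK-1B TEC, 4.46-fold above Hepa1-6 TEC and 3.41-fold above KYN-2 TEC, and at least 28.0-fold above Hepa1-6 cells. The mean ratio of the 3 TECs was -2.31 ± 0.64 (SD, n = 3). All 5 Itga1 probes were lower in all 3 TECs than in LSEC, and the 4 measured on all endothelial arrays had mean ratios between -3.18 and -2.31. The other probe (A_55_P2738827) was at 8.70 in LSEC and not well above background in HAK-1B and KYN-2 TECs. The printed Itga1 probe was at 9.82 in LSEC and at 6.81, 6.27 and 7.49 in TECs of HAK-1B, Hepa1-6 and KYN-2 tumors, the same direction at other sizes. The lead probe had log2 ratios of -3.01, -2.16 and -1.77 in this order of tumors. Medians of the 10 endothelial marker genes were -2.47, -2.52 and -1.60. The part of a lower endothelial content in the Itga1 values was not tested. Genes of like pattern are not given for Itga1, since its value in Hepa1-6 cells was not measured above background.

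Itga2, the other collagen-binding alpha chain, had a single probe and was dim in endothelial cells. It was at 3.59 in LSEC and 4.25 in KYN-2 TEC, neither well above background, at 5.32 for HAK-1B TEC, 4.34 on the Hepa1-6 TEC array, and 7.48 in Hepa1-6 cells. The tumor cells were the highest array, at least 6.95-fold above LSEC, and HAK-1B TEC was at least 1.56-fold above LSEC. No fold can be given for Hepa1-6 TEC, whose value was under the limit of the LSEC array. The level of Itga2 in TECs was not measured well enough to order the 3 tumors.

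Itga3, a receptor for laminins of the basement membrane, went the other way. Its lead probe was at 6.51 in LSEC, 8.23 for HAK-1B TEC, 9.88 on the KYN-2 TEC array, 11.58 for Hepa1-6 TEC and 12.93 in Hepa1-6 cells. HAK-1B TEC was 3.28-fold, KYN-2 TEC 10.3-fold and Hepa1-6 TEC 33.5-fold above LSEC, and the tumor cells were 85.6-fold above it. The array order in TECs, with Hepa1-6 TEC first, was also that of the summed epithelial and tumor genes. In HAK-1B TEC that sum (800) was below LSEC (1566), whereas Itga3 was above it. The part of these cells in the Itga3 value was not tested. The printed Itga3 probe gave 6.44 in LSEC and 7.72, 7.51 and 7.74 in TECs of HAK-1B, Hepa1-6 and KYN-2 tumors, with 8.66 in Hepa1-6 cells. By that probe the 3 TECs lay within 1.17-fold of each other and were 2.43-fold, 2.09-fold and 2.45-fold above LSEC. Both probes had the same direction in all 3 TECs, but only the lead probe set Hepa1-6 TEC apart, with 10.2-fold between the highest and lowest TEC. The genes whose pattern over the 5 arrays was most like that of Itga3 were Cep170b, with a root mean square difference of 0.35 after centring on each gene's mean, and Psat1, an enzyme of serine synthesis, with 0.43, where the median over 13822 genes was 2.30.

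Itga6, a laminin receptor that pairs with Itgb1 or Itgb4, was bright on every array. It was at 13.33 in LSEC, 14.11 for HAK-1B TEC, 13.90 for Hepa1-6 TEC, 13.36 on the KYN-2 TEC array and 13.18 in Hepa1-6 cells. All 5 arrays lay within 0.92 on the log2 scale, and the mean ratio of TECs was 0.46 ± 0.39 (SD, n = 3). The probes did not agree. Probe A_55_P2742291 was higher in all 3 TECs, by 2.74-fold, 1.85-fold and 1.83-fold in TECs of HAK-1B, Hepa1-6 and KYN-2 tumors. Probe A_55_P1958840, designed on another transcript, was at 11.15 in LSEC, 9.5 for HAK-1B TEC, 9.68 on the KYN-2 TEC array, 12.34 for Hepa1-6 TEC and 11.75 in Hepa1-6 cells. It was lower than LSEC in the TECs of both human lines and higher in Hepa1-6 TEC. The remaining probes were not well above background in LSEC. Probe A_52_P324934 was at least 3.51-fold, 3.83-fold and 2.69-fold above LSEC in TECs of HAK-1B, Hepa1-6 and KYN-2 tumors. Probe A_65_P04508 was at least 2.31-fold above LSEC in HAK-1B TEC and 1.38-fold in KYN-2 TEC, with no fold for Hepa1-6 TEC. Among the 5 probes, only A_55_P1958840 was lower in TECs of both human lines. The direction of Itga6 in TECs therefore depended on the probe.

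Itga5, the alpha chain of the classical fibronectin receptor, differed between tumors. Its single probe was at 7.99 in LSEC, 9.90 for HAK-1B TEC, 9.81 on the KYN-2 TEC array, 7.72 for Hepa1-6 TEC and 7.55 in Hepa1-6 cells. TECs from both human lines were the 2 highest arrays, 3.76-fold and 3.53-fold above LSEC, and Hepa1-6 TEC was 1.21-fold below LSEC.

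Itgav, the alpha chain of several RGD-binding receptors, had the same order of TECs. It was at 11.62 in LSEC, 12.86 for HAK-1B TEC, 12.40 on the KYN-2 TEC array, 11.66 for Hepa1-6 TEC and 12.74 in Hepa1-6 cells. HAK-1B TEC was 2.36-fold and KYN-2 TEC 1.73-fold above LSEC and Hepa1-6 TEC was 1.03-fold above it, a difference whose sign turned (-0.01) when arrays were scaled to their 75th percentile. For each of the other 3 Itgav probes, HAK-1B and KYN-2 TECs were above Hepa1-6 TEC as well. Their ratios to LSEC in Hepa1-6 TEC did not agree. Probe A_55_P2637536 was 4.94-fold, 1.87-fold and 4.06-fold above LSEC in TECs of HAK-1B, Hepa1-6 and KYN-2 tumors. Probe A_55_P2717997 gave 3.89-fold, 0.98-fold and 3.88-fold in this order. Probe A_52_P102916 was not well above background in LSEC.

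Itgb3, the beta chain of the vitronectin receptor of angiogenic vessels and, with Itga2b, of the platelet fibrinogen receptor, was at 12.29 in LSEC, 11.69 for HAK-1B TEC, 11.86 for Hepa1-6 TEC, 13.14 on the KYN-2 TEC array and 8.87 in Hepa1-6 cells. KYN-2 TEC was the highest array, 1.81-fold above LSEC and 2.73-fold above HAK-1B TEC. Platelet genes had their highest summed signal on the same array. Of these, Itga2b, the platelet partner of Itgb3, was at 9.94 in LSEC, 7.55 for HAK-1B TEC, 8.39 for Hepa1-6 TEC, with 9.66 for TECs of KYN-2, and the part of platelets in the Itgb3 value was not tested. The second Itgb3 probe was also highest in KYN-2 TEC, at 7.25, but was higher in HAK-1B TEC (6.53) than in LSEC (5.78). Hepa1-6 cells differed from LSEC by -3.41 on the log2 scale by the lead probe.

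Itgb5, a beta chain that pairs with Itgav, was at 13.37 in LSEC, 15.54 for HAK-1B TEC, 13.44 for Hepa1-6 TEC, 13.62 on the KYN-2 TEC array and 11.40 in Hepa1-6 cells. HAK-1B TEC stood above the others, 4.50-fold over LSEC, and was also the array with the highest summed neutrophil signal. Its summed macrophage signal, 375778, was the highest of the TECs and under that of LSEC (613871). The part of either cell type was not tested. Hepa1-6 TEC and KYN-2 TEC were 1.05-fold and 1.19-fold above LSEC, and Hepa1-6 cells were 3.92-fold below it.

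Itga9, which binds tenascin-C and the EIIIA form of fibronectin, was at 14.92 in LSEC, 12.85 for HAK-1B TEC, 12.71 for Hepa1-6 TEC, with 13.21 for TECs of KYN-2. In Hepa1-6 cells it was at 2.72, not well above background. The 3 TECs lay within 1.42-fold of each other, and LSEC was 4.19-fold, 4.63-fold and 3.27-fold above HAK-1B, Hepa1-6 and KYN-2 TECs. The mean ratio was -2.0 ± 0.26 (SD, n = 3), the smallest SD relative to its mean among the lead probes. LSEC was at least 497-fold above Hepa1-6 cells, and HAK-1B TEC at least 118-fold above these cells. The printed Itga9 probe was at 10.86 in LSEC and 10.09, 9.05 and 10.21 in TECs of HAK-1B, Hepa1-6 and KYN-2 tumors, lower in each by 1.70-fold, 3.50-fold and 1.57-fold. By the lead probe the log2 ratios were -2.07, -2.21 and -1.71 in this order of tumors, beside endothelial marker medians of -2.47, -2.52 and -1.60. As for Itga1, the part of a lower endothelial content was not tested. Genes of like pattern are not given, for the same reason as for Itga1.

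Itgb1 was bright on all arrays and its probes disagreed in direction. The lead probe was at 14.79 in LSEC, 14.06 for HAK-1B TEC, 14.57 for Hepa1-6 TEC, 14.36 on the KYN-2 TEC array and 13.83 in Hepa1-6 cells. LSEC was highest, with a mean ratio of TECs of -0.46 ± 0.26 (SD, n = 3), and the sign turned in Hepa1-6 TEC (0.07) and KYN-2 TEC (0.05) with 75th percentile scaling. The printed Itgb1 probe was at 11.41 in LSEC, 11.87 for HAK-1B TEC, 12.40 for Hepa1-6 TEC, with 12.48 for TECs of KYN-2, with a mean ratio of 0.84 ± 0.33 (SD, n = 3). By it LSEC was the lowest of the 5 arrays. The third probe, A_52_P69236, was near background, at 4.98 in LSEC and between 5.10 and 5.97 in TECs. No direction is given for Itgb1 in TECs.

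**Figure D3:**
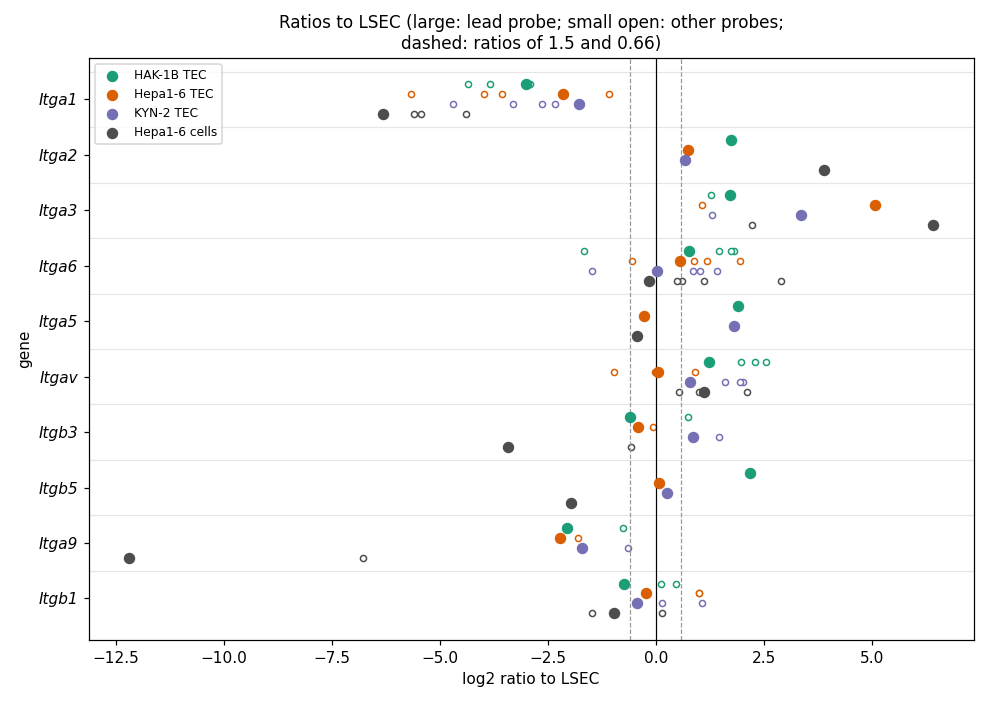
Log2 ratio to LSEC (x axis) of each probe of the 10 genes, with a large point for the lead probe and small open points for other probes, 1 colour per array, and dashed lines at ratios of 1.5 and 0.66. Ratios that involve an array where the probe was not well above background are measured values and not bounds. Itga1 and Itga9 lay to the left of 0 in all 3 TECs for every probe and Itga3 to the right.

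Each array was also set against LSEC alone by the size criterion in the methods. It asks for a ratio of 1.5 or more together with a Z-score of 2 or more, or for a ratio of 0.66 or less together with a Z-score of -2 or less. By the ratio alone, 6 of 10 members were higher in HAK-1B TEC (Itga2, Itga3, Itga5, Itga6, Itgav and Itgb5) against 26.6% of all genes, and 3 were lower (Itga1, Itga9 and Itgb1) against 26.9%. Itgb1 counts here by its lead probe alone (-0.73), and its other probes were at 0.46 and 0.11. With 75th percentile scaling the lead probe (-0.32) no longer passed. In Hepa1-6 TEC 2 members were higher (Itga2 and Itga3) against 35.2% and 2 were lower (Itga1 and Itga9) against 30.9%. Itga2 meets the rule on flags there, but no fold can be given for it. In KYN-2 TEC 4 of 9 were higher (Itga3, Itga5, Itgav and Itgb3) against 26% and 2 were lower (Itga1 and Itga9) against 28.5%. In Hepa1-6 cells 3 of 10 were higher (Itga2, Itga3 and Itgav) against 36.2% and 5 were lower (Itga1, Itga9, Itgb1, Itgb3 and Itgb5) against 37.7%. With the Z-score, which required a gene to be between 7.17-fold and 13.1-fold higher in a TEC, 1 member passed in each TEC. For HAK-1B TEC this was Itga1, lower, at a Z-score of -2.03, where 2.91% of all genes were called higher and 3.28% lower. This call was lost when arrays were normalized by pair, as in the methods, and with 75th percentile scaling. For Hepa1-6 TEC it was Itga3, higher, at 2.77, where 3.82% were called higher and 1.87% lower. For KYN-2 TEC it was again Itga3, higher, at 2.36, where 3.30% were called higher and 2.53% lower. In Hepa1-6 cells Itga3 was called higher (2.15% of all genes) and Itga1 and Itga9 lower (4.17%). The lower calls rest on values not well above background. A call needed LSEC to be 66.7-fold higher, which the limit of at least 28.0-fold for Itga1 does not reach and that of at least 497-fold for Itga9 does. None of the members met the criterion 1 way in every TEC, where 0.487% of genes were called higher and 0.891% lower.

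The only fit with a spread between arrays was limma's, in which the 3 TECs formed a group. It had 2 residual degrees of freedom and assumed that the single LSEC array varies as the TECs do. With Benjamini-Hochberg adjustment over 42112 probes, limma called 0 probes and 0 of the 26 integrin probes at an adjusted p of 0.05. Before adjustment, limma gave a p below 0.05 to 4039 of the 42112 probes and to 7 of the 26 integrin probes. Most of these 7 were probes of Itga1, and the rest were single probes of Itga3, Itga6 and Itga9. Probes of 1 gene on the same arrays are not independent, and no excess of integrins is read from this count. The smallest unadjusted p of a member in limma was 0.0022, for the lead probe of Itga9, with a log2 difference of -2.0 (SE 0.36) and an adjusted p of 0.239. For the lead probe of Itga3 limma gave a difference of 3.38 (SE 1.26) and an adjusted p of 0.488, and for that of Itga1 -2.31 (SE 0.62) and 0.323. Without HAK-1B TEC, limma with 1 residual degree of freedom gave the lead probe of Itga3 an adjusted p of 0.0117. That fit called 592 of 41655 probes, against 0 with all 3 TECs.

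Other integrins, ligands and partners were counted in the same way, as the genes with a ratio past the limit in all 3 TECs. The counts were not tested, and nothing about a list as a group is read from them. Of 24 matrix ligands kept, 8 were higher and 2 lower, against 11% and 17.8% of all genes. The higher ones included Fn1, fibronectin, the ligand of Itga5 with Itgb1, at 10.52 in LSEC and 16.93, 16.17 and 15.33 in TECs of HAK-1B, Hepa1-6 and KYN-2 tumors. Spp1, osteopontin, a ligand of Itgav and Itga9 receptors, was at 9.83 in LSEC and 15.98, 13.53 and 15.86. Col1a1, a chain of the collagen that Itga1 and Itga2 bind, was not well above background in LSEC and at 9.46, 10.87 and 11.53. Its list of fibroblast and mural genes had 4 of 10 higher in all 3 TECs, against 11% of all genes. These were Pdgfrb and Col1a1, Col1a2 and Col3a1, which were also counted among the matrix ligands. Of the rest, Dcn, Lum, Pdgfra and Rgs5 were lower in HAK-1B TEC than in LSEC. Acta2 was higher there, and Des was not well above background in LSEC. Hepa1-6 cells gave 16.52 for Fn1 and a value not well above background for Col1a1.

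Of 29 activators and adaptors of the cytoplasmic side, 9 were lower and 3 higher in all 3 TECs, against 17.8% and 11% of all genes. Tns3, a tensin, was at 13.13 in LSEC and 11.54, 9.86 and 10.99 in TECs of HAK-1B, Hepa1-6 and KYN-2 tumors. Bcar1, an adaptor phosphorylated on adhesion, was at 12.62 in LSEC and 9.59, 10.91 and 11.10. Src, the kinase that acts on it, was higher, at 5.80 in LSEC and 8.95, 9.18 and 6.94. Of 13 membrane partners 5 were higher and 3 lower, against 11% and 17.8% of all genes. The largest mean ratios of this list were those of Plaur, the urokinase receptor, Sdc4, a fibronectin co-receptor, and Cd63, a tetraspanin. Sdc4 was at 8.18 in LSEC and 11.92, 11.28 and 11.57 in the TECs in the same order.

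Among 6 other matrix integrins kept, Itga7 was higher and Itga8 lower in all 3 TECs, against 11% and 17.8% of all genes. Itga8, an RGD-binding alpha chain, was at 12.01 in LSEC, 8.08 for HAK-1B TEC, 7.90 for Hepa1-6 TEC, 9.39 on the KYN-2 TEC array and not well above background in Hepa1-6 cells. Itgb4, the second partner of Itga6, was at 8.45 in LSEC, 9.20 for HAK-1B TEC, 7.46 on the KYN-2 TEC array, 12.70 for Hepa1-6 TEC and 11.55 in Hepa1-6 cells, so that Hepa1-6 TEC and Hepa1-6 cells were the highest arrays. Of 8 leukocyte and platelet integrins kept, 2 were higher (Itgax and Itgb2) and 1 lower (Itgam), against the same shares of all genes. Itgax, a chain of a myeloid receptor, was at 8.53 in LSEC and 14.75, 13.11 and 12.96 in TECs of HAK-1B, Hepa1-6 and KYN-2 tumors.

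**Figure D4:**
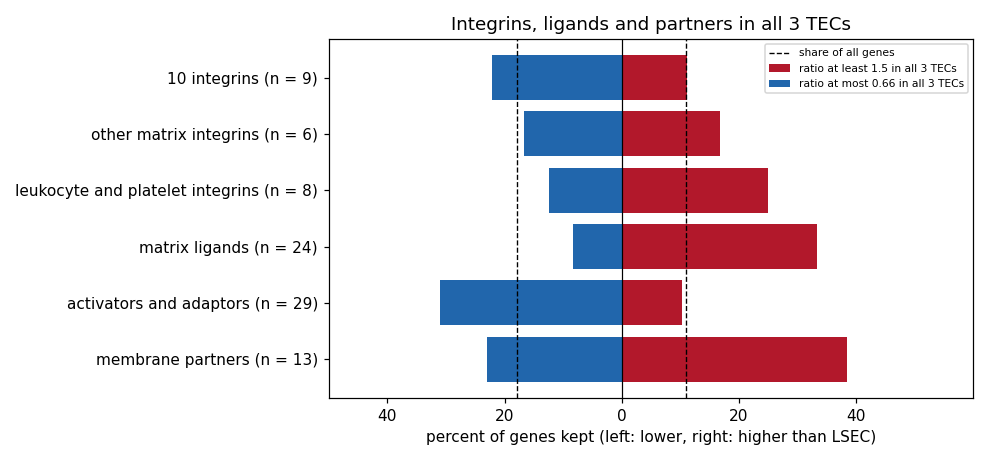
Percent of the kept genes of 6 lists with a ratio to LSEC of at least 1.5 (red, to the right) or at most 0.66 (blue, to the left) in all 3 TECs, with dashed lines at the shares of all genes, 11% and 17.8%. The 10 integrins had 1 higher and 2 lower gene, and the matrix ligands had 8 higher and 2 lower.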

How the data were processed

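Per the labels RNA was labelled with Cy3, and the methods describe a 60-mer array. The authors deposited scanner files with the linear intensity of every spot, background already subtracted, and quality flags (Agilent Feature Extraction, 9.5.1.1 per the labels and 10.7.1.1 per the file headers). Their table of normalized intensity values served as an alternative. Control spots were left out, spots of 1 probe were averaged, and the 5 arrays were quantile normalized together after log2 transformation. A gene needed the flag present on either array of a pair, and 4460 lincRNA probes were dropped, both following the methods. The Z-score was the log2 ratio minus its mean over kept genes, divided by the SD. An "at least" fold divides by the dim array's lowest signal among probes well above background, or by the dim value if higher. Python 3.11.15, numpy 2.4.6, pandas 2.3.3, R 4.3.3 and limma 3.58.1 were used.

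The named genes were all 10 members, up to 3 genes of each of 15 hand-written lists with the largest mean ratio, and the 2 genes most like each of the 3 members with the widest range, given for Itga3 alone because Itga1 and Itga9 were not well above background in Hepa1-6 cells. Itga2b and others past the limits, named beside these, were chosen after their values were seen. Itgad and genes of several marker lists were picked by the rule of largest mean ratio but are not described above. Itgad had a mean ratio of 2.10 and was not well above background in LSEC and KYN-2 TEC. The members and lists were chosen with earlier results of these data known. Gene names are those on the array. Of the 26 probes, 17 had a RefSeq accession listed in RefSeq's GRCm38.p6 gene table, all 17 with the same symbol.

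The rule of size and limma were tested on simulated data of 3 TECs against LSEC with 42112 probes, 200 of them changed by 4 on the log2 scale. A total of 4 simulations was written one after another, each changed after the result before it was seen, and the limits on false calls were also replaced after the first. In the first, with a noise SD of 0.3 at the median probe, limma recovered 106 of 200 where 180 were required, and the rule of size recovered 199 with 259 false calls. The second, with a noise SD of 0.12, gave limma 195 and 37 false calls. The third, with variances as limma assumes them, gave 200 and 56 false calls, of which 43 were among the 1% of probes with the lowest signal, and 7 without quantile normalization. The fourth took changed probes from the middle of the signal range and gave 200 recovered and 12 false calls. It was the only one with quantile normalization to meet the limits. The third met them as well without this normalization, with 200 recovered and 7 false calls. The median SD between the real TECs was 0.572, above the noise of every simulation, so these numbers check the computation and overstate what limma can recover from these arrays.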

Additional observations from a re-analysis of the deposited data

Results flagged for a closer look

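For 2 members the log2 ratio to LSEC had opposite signs in TECs of different lines. Members were flagged by sign alone. The rule first asked for ratios past the limits on both sides, which no member met. It was changed after that was seen. None of the lower values given here passed the limit for a lower ratio. Itga5 was higher in HAK-1B TEC (1.91) and KYN-2 TEC (1.82) and lower in Hepa1-6 TEC (-0.27). Itgb3 was higher in KYN-2 TEC (0.85) and lower in HAK-1B TEC (-0.60) and Hepa1-6 TEC (-0.42). With 1 array for each tumor, neither difference was tested. For Itgb3 in HAK-1B TEC the median over its 2 probes had the other sign (0.08).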

How the results depend on the processing

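No paired analysis was possible because only 1 array exists here for a condition. A block for slide could not be fitted, since LSEC shares its slide with no TEC. Itga1 and Itga9 were lower and Itga3 higher in all 3 TECs under every alternative tried (75th percentile scaling, normexp with an offset of 50, the deposited table, normalization by pair, the median of a gene's probes, and other filters on flags). The count of members higher in all 3 TECs was 2 with the median of probes (with Itga6) and 2 without a filter on flags (with Itga2, not well above background in LSEC and KYN-2 TEC), and with each TEC left out it lay between 1 and 3, adding Itga5 and Itgav without Hepa1-6 TEC. Counts by ratio and Z-score moved in HAK-1B TEC to 0 with 75th percentile scaling and 0 with normalization by pair (both without Itga1), 2 with normexp and 9 without the Z-score. They moved in Hepa1-6 TEC to 2 with normexp and 4 without the Z-score, where the median of probes called Itga1 in place of Itga3. In KYN-2 TEC they moved to 0 with the median of probes and 6 without the Z-score, and in Hepa1-6 cells to 1 and 8. With both sides well above background, the 2 called in Hepa1-6 cells were Itga3 and Itgb3, without Itga1 and Itga9. The median ratio of the members in KYN-2 TEC was 0.87 with the median of probes. The number of integrin probes called by limma lay between 0 and 1 with each TEC left out, the 1 being Itga3 without HAK-1B TEC (592 of 41655 probes called; 236 of 41934 without KYN-2 TEC), and was 0 under the other alternatives. The cause of these moves was not tested. Of 165 values of single members, each a mean over TECs or a value of Hepa1-6 cells, 144 stayed within the SD between TECs and 21 moved by more. Of those past a ratio limit, 0 changed sign. Single TEC arrays were not in this count, and Itgb1 in HAK-1B TEC turned from -0.73 to 0.11 with the median of probes. Scaling to the 75th percentile moved the median of all genes by 0.35 in Hepa1-6 TEC and 0.13 in Hepa1-6 cells. Signs turned for Itga6 in Hepa1-6 cells (0.42 with this scaling, 0.86 with the median of probes) and for Itgb1 in all 3 TECs with the median of probes. Signal over background limits Itga2 in all endothelial arrays and Itga1 and Itga9 in Hepa1-6 cells.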
